A study of Homo sapiens with 18 samples.

Results

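Long non-coding RNAs of the intergenic (LINC) and antisense classes were described in cells of the human colon adenocarcinoma line SW48 in which the chromatin remodeller CHD4 was depleted with or without loss of DNA methylation. The members were chosen by measured values: a gene symbol made of LINC and digits, or ending in -AS1, -AS2 or -AS3, with at least 1 FPKM (a read level scaled to transcript length and library size) in at least 3 of the 18 libraries. Of 677 matching symbols 183 met this limit, 40 of the LINC class and 143 of the antisense class, and 136 were listed at 0 in every library. These 183 stood among 12809 genes tested at the same limit. A later annotation placed 177 of them and lists 164 as long non-coding, 6 as protein coding and 7 as another type such as a transcribed pseudogene, so the class is that of the symbol.

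The study asked how siRNA against CHD4 (siCHD4) changes gene expression when DNA methylation is intact or lowered. CHD4 is the motor subunit of a complex that moves nucleosomes and removes acetyl groups from histones, DNMT1 is the methyltransferase that copies DNA methylation after replication, and decitabine is a cytidine analogue that traps DNA methyltransferases. The 6 groups of 3 libraries were siCHD4, siCHD4 plus siRNA against DNMT1 (siDNMT1), siCHD4 plus 50 nM decitabine, control siRNA plus siDNMT1, control siRNA plus 50 nM decitabine, and control siRNA. All were cultures of the same line.

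Cells given siCHD4 or control siRNA alone were transfected on days 1, 3 and 6 and collected on day 8. Those of the siDNMT1 groups received siDNMT1 on days 1, 3 and 5 and siCHD4 or control siRNA on days 7 and 8, with collection on day 11. Those of the decitabine groups received the drug on days 1, 2 and 3 and siCHD4 or control siRNA on days 1 and 2, with collection on day 5. The siCHD4 comparisons within a background therefore share a schedule, whereas in every comparison with control siRNA alone treatment and schedule cannot be told apart. Whether a group's 3 libraries stem from separate cultures is not stated in the labels, and the p-values reflect no more than their spread, which may be technical.

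Long non-coding RNAs are transcripts, most of them spliced and polyadenylated, that are not known to be translated, and most are made at lower levels and in fewer cell types than messenger RNAs. Antisense RNAs are transcribed from the strand opposite a named gene, often from a shared or neighbouring promoter, and some act on that gene while most have no known role. DNA methylation at CG dinucleotides of a promoter and histone deacetylation by the CHD4 complex are both known to hold genes silent, and several non-coding RNAs are known to be silenced by methylation in colon tumours.

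The depletion was checked first. CHD4 averaged 31.3 ± 7.87 FPKM in siCHD4 libraries, against 62.8 ± 4.78 FPKM in control siRNA libraries (SD, n = 3 each, as throughout). With siDNMT1 it averaged 28.4 ± 1.12 FPKM in siCHD4 libraries, against 68.2 ± 5.19 FPKM in control siRNA libraries. With decitabine it averaged 54.9 ± 2.06 FPKM in siCHD4 libraries, against 76.2 ± 8.17 FPKM in control siRNA libraries, a difference that was not called (adjusted p = 0.0752). DNMT1 averaged 12.1 ± 0.968 FPKM in siCHD4 plus siDNMT1 and 12.3 ± 1.15 FPKM in control siRNA plus siDNMT1, against 44.7 ± 0.892 FPKM in control siRNA. The worth of 1 fragment was estimated from 2183 genes with low values, as their most frequent ratio to control siRNA replicate 0. It lay between 0.599 and 1.13 in all libraries but control siRNA plus decitabine replicate 0. There it was 4.17, so low values in that library were taken as the coarsest. Of 8 colon epithelium markers 7 were expressed, with CDX1 at most at 0.0417 FPKM. Their summed level lay at 1196 to 1364 FPKM in siCHD4, 1052 to 1095 FPKM in siCHD4 plus siDNMT1 and 1439 to 1498 FPKM in siCHD4 plus decitabine, against 1798 to 1878 FPKM in control siRNA plus siDNMT1, 1883 to 2457 FPKM in control siRNA plus decitabine and 2014 to 2126 FPKM in control siRNA. KRT8 and KRT18 made up most of that sum and of its fall. In siCHD4 plus siDNMT1 KRT8 averaged 340 FPKM and KRT18 274 FPKM, against 681 FPKM and 828 FPKM in control siRNA plus siDNMT1. The other 5 expressed markers averaged higher there, CDH1 at 108 FPKM, KRT19 at 46.8 FPKM, CDX2 at 66.4 FPKM, VIL1 at 7.04 FPKM and EPCAM at 227 FPKM, against 54.9, 16.4, 44.5, 2.75 and 210 FPKM in control siRNA plus siDNMT1. Summed markers of fibroblasts reached 12.7 to 14.8 FPKM in siCHD4 plus siDNMT1, against 3.62 to 3.87 FPKM in control siRNA plus siDNMT1 and 0.121 to 0.471 FPKM in control siRNA. LUM made up most of that sum and COL3A1 was listed at 0 in every library. Summed blood markers reached 3.48 to 4.23 FPKM in siCHD4 plus siDNMT1, against 0.954 to 1.44 FPKM in control siRNA plus siDNMT1 and 0 to 0.0908 FPKM in control siRNA, and the part of these markers in the results was not tested.

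Promoters are shown here for members on which the results turn: LINC00479, LINC00112, LINC00659, UNC5B-AS1 and PHKA2-AS1, which were among the largest rises, LINC00674 and RUSC1-AS1, which fell, and LINC00657, an abundant RNA with no called change. Each runs 5′ to 3′ over 250 bases before to 50 bases after the start in RefSeq (GRCh38.p14), was placed on GRCh37 by an exact match, and has every CG dinucleotide, the target of DNA methylation, in capitals.
LINC00479: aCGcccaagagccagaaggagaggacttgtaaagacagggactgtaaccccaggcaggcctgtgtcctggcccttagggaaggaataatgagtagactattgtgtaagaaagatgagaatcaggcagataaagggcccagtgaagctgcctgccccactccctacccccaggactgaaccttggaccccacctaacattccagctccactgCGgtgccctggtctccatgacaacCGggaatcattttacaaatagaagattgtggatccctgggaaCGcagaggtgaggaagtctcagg
LINC00112: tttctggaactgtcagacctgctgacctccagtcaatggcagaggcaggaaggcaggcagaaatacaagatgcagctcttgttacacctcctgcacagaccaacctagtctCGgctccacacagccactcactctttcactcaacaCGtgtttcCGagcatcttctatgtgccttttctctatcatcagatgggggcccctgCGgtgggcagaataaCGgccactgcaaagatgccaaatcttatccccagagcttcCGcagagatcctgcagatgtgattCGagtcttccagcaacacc
LINC00659: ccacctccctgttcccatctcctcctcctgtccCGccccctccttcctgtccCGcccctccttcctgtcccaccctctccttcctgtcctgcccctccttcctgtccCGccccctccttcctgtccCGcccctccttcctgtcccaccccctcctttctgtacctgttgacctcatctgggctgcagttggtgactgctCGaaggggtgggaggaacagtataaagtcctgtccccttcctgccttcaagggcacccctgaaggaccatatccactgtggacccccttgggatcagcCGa
UNC5B-AS1: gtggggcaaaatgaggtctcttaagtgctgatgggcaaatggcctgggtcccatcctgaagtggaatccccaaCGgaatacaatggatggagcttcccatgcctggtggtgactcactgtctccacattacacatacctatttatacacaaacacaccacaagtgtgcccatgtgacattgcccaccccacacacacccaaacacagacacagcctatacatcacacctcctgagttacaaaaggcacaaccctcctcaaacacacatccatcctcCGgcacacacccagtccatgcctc
PHKA2-AS1: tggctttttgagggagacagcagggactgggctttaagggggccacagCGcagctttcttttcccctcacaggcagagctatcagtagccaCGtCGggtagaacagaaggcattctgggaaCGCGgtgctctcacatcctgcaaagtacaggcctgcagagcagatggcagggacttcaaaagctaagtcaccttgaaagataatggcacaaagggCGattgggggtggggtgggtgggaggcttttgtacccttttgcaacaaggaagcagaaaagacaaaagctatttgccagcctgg
LINC00674: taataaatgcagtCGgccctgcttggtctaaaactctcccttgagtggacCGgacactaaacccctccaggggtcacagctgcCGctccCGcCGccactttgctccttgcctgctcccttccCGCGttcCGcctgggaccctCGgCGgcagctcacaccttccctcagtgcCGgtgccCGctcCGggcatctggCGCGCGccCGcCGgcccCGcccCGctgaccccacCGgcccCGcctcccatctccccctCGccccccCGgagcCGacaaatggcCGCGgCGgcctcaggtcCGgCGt
RUSC1-AS1: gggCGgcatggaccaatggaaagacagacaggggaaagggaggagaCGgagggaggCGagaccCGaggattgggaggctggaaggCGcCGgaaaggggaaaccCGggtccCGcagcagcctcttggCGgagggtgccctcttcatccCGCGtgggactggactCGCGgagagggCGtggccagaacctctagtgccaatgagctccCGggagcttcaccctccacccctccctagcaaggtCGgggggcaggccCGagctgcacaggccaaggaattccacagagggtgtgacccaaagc
LINC00657: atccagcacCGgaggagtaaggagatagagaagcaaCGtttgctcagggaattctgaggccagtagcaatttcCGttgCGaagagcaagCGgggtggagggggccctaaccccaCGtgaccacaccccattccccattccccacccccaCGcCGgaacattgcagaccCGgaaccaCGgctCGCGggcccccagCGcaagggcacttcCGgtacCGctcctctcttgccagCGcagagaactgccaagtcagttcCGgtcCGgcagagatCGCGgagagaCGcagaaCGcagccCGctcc

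The LINC00479 window (chr21:43135886-43136185, minus strand) holds 4 CG and the LINC00112 window (chr21:43136346-43136645, plus strand) holds 7. These windows lie 160 bases apart on opposite strands. The annotated genes, LINC00479 at chr21:43131680-43135935 and LINC00112 at chr21:43135966-43138135, stand head to head with 30 bases between them. The LINC00112 window lies wholly inside its annotated gene, so RefSeq and the annotation differ on where that RNA starts. LINC00659 (chr20:61408159-61408458, minus strand) and PHKA2-AS1 (chrX:18908164-18908463, plus strand) hold 6 CG each, and UNC5B-AS1 (chr10:72977936-72978235, minus strand) holds 2. At least as many CG are found in 63.2% of all RefSeq promoters of this length for LINC00112, 66.3% for LINC00659 and PHKA2-AS1, 75.5% for LINC00479 and 89.0% for UNC5B-AS1. LINC00674 (chr17:66097446-66097745, plus strand) holds 30 CG, RUSC1-AS1 (chr1:155293918-155294217, minus strand) 17 and LINC00657 (chr20:34638833-34639132, minus strand) 23, numbers reached by 22.4%, 46.0% and 35.8% of all promoters in that order. CG was counted on the printed strand, where it reads the same on the other strand. No methylation was measured here, and the windows were chosen for the results they go with, so no comparison between them is drawn.

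Most members were weakly expressed. The median member averaged 2.20 FPKM over the 18 libraries, against 12.1 FPKM for the median tested gene. A mean over 10 FPKM was reached by 28 members and a mean under 2 FPKM was held by 87. In every library 89 members reached 1 FPKM, 126 did so in some library of each of the 6 groups, and 162 were never at 0. Per library 155 to 159 members reached 1 FPKM in siCHD4 plus siDNMT1, against 127 to 132 in control siRNA plus siDNMT1. In siCHD4 alone 142 to 144 did, against 123 to 138 in control siRNA, and in siCHD4 plus decitabine 138 to 147 did, against 137 to 150 in control siRNA plus decitabine. The 150 came from control siRNA plus decitabine replicate 0, whose low values were taken as the coarsest, and replicates 1 and 2 held 137 and 140. Over all named genes 12434 to 12502 reached 1 FPKM in siCHD4 plus siDNMT1, against 11788 to 11836 in control siRNA plus siDNMT1. In siCHD4 alone 11703 to 11932 genes did, against 11477 to 11609 in control siRNA. With decitabine 12039 to 12137 genes did in siCHD4 libraries, against 11761 to 11991 in control siRNA libraries, the 11991 again from replicate 0. The members were chosen at this same limit, so those that met it through 1 group raise its count.

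The most abundant member was C17orf76-AS1, annotated as SNHG29 at chr17:16342081-16383563, a host of small nucleolar RNAs. It stood at 555, 623 and 570 FPKM in siCHD4 plus siDNMT1, against 832, 770 and 813 FPKM in control siRNA plus siDNMT1. All libraries of the doubly treated group lay below their controls (log2 change -0.47 ± 0.10 SE on the log2(FPKM + 1) scale, adjusted p = 0.00139 by limma with Benjamini-Hochberg adjustment over all tested genes, the test used throughout). PCNA-AS1, opposite the gene of the replication clamp, stood at 213, 230 and 173 FPKM in siCHD4 plus siDNMT1, against 338, 282 and 330 FPKM in control siRNA plus siDNMT1 (log2 change -0.63, adjusted p = 0.00303). PCNA itself averaged 174 ± 14.7 FPKM in siCHD4 plus siDNMT1, against 327 ± 12.3 FPKM in control siRNA plus siDNMT1 (log2 change -0.91, adjusted p = 2.83e-05). In bulk RNA fewer cells with a transcript and less of it per cell cannot be told apart. The libraries were stranded per the labels' protocols, but the strand setting used in counting is not given in the sources used here, so reads of an antisense RNA and its partner cannot be told apart where their exons overlap.

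LINC00657, known as NORAD, which binds Pumilio proteins and guards genome stability, was called in none of the 7 comparisons between groups. Its mean was 178 ± 4.09 FPKM in siCHD4 plus siDNMT1, the highest of the 6 groups, against 150 ± 10.9 FPKM in control siRNA. FGD5-AS1 also had no call, with group means between 32.7 and 39.8 FPKM. OIP5-AS1, whose counterpart in fish and mouse is cyrano, averaged 26.6 ± 2.22 FPKM in siCHD4 plus siDNMT1, against 21.4 ± 1.39 FPKM in control siRNA plus siDNMT1 (log2 change 0.30, adjusted p = 0.0069). LINC00152, also named CYTOR, averaged 31.3 ± 4.44 FPKM in control siRNA plus siDNMT1, against 48.1 ± 4.89 FPKM in control siRNA (log2 change -0.61, adjusted p = 0.0394). That call was lost when single libraries were left out, for example control siRNA replicate 0 (adjusted p = 0.138), control siRNA replicate 1 (adjusted p = 0.106) and replicates 0 (adjusted p = 0.149) and 1 (adjusted p = 0.119) of control siRNA plus siDNMT1. It was also lost with the replicate block (adjusted p = 0.0582), without the filter on low genes (adjusted p = 0.0606) and after quantile normalization (adjusted p = 0.0774).

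Over the 7 comparisons 111 members (60.7%) were called in at least 1, beside 70.8% of all tested genes, and 72 in none. Calls of both directions, higher in some comparisons and lower in others, were held by 2 members. LINC00624 and LINC00346 were called higher in all 7, although the siCHD4 call of LINC00346 with decitabine was unstable, as given below. The comparisons share libraries, so their calls are not independent. These 2 counts were not made over all tested genes. By group mean, 63 members were highest in siCHD4 plus siDNMT1, 32 in siCHD4, 11 in siCHD4 plus decitabine, 27 in control siRNA plus decitabine, 16 in control siRNA plus siDNMT1 and 34 in control siRNA. By the same measure 36 members were lowest in siCHD4 plus siDNMT1, 49 in control siRNA plus siDNMT1 and 39 in control siRNA. In each of the remaining groups 19 or 20 were. Matching counts over all tested genes were not made, and a member may be in the set through its highest group.

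**Figure D1:**
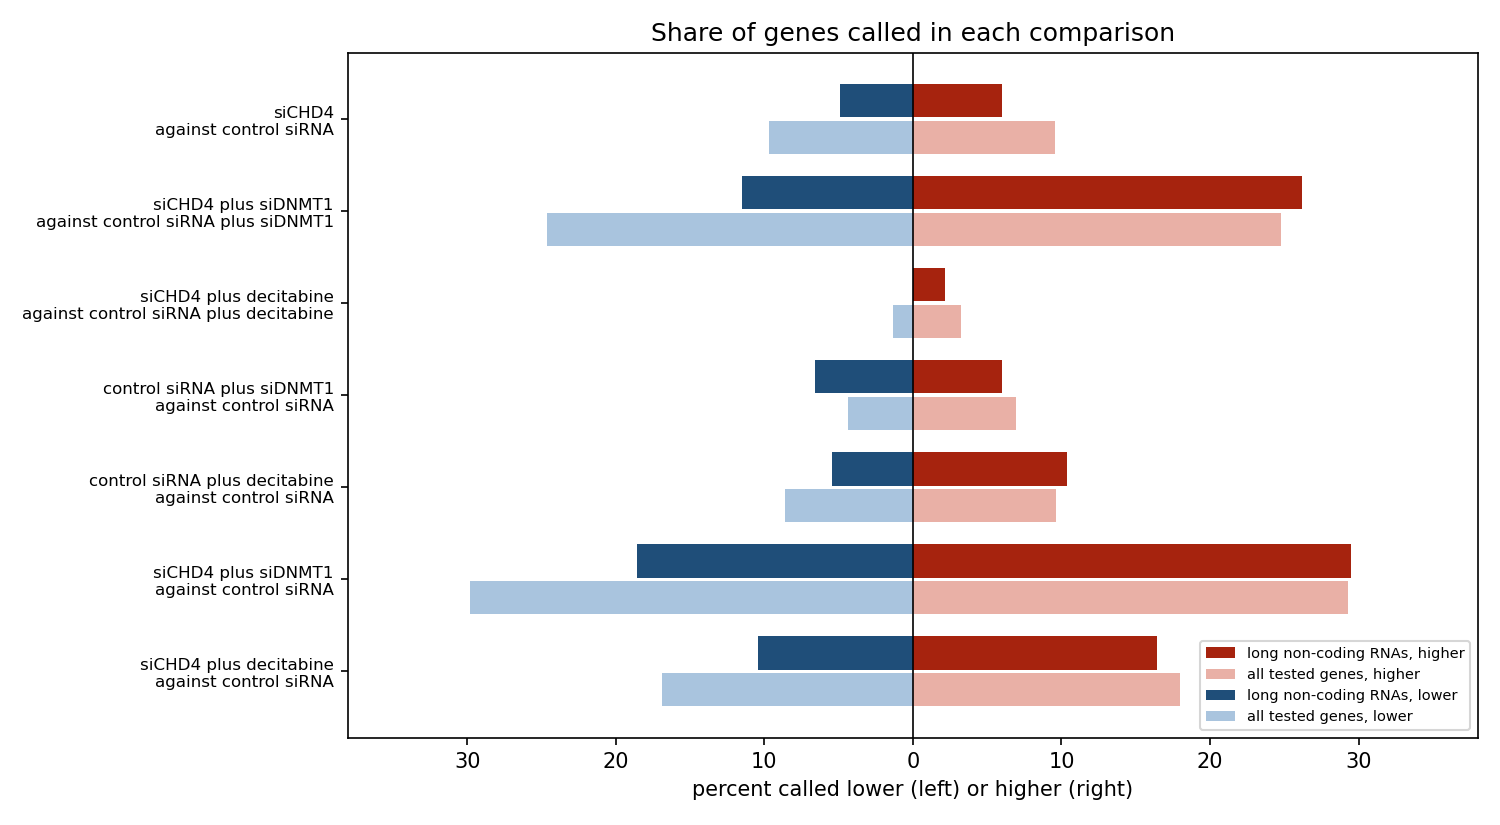
Percent of the 183 long non-coding RNAs (dark bars) and of all 12809 tested genes (pale bars) called lower (left of 0) or higher (right of 0) at an adjusted p below 0.05 in each of the 7 comparisons. In siCHD4 plus siDNMT1 against control siRNA plus siDNMT1, 26.2% of the RNAs were called higher and 11.5% lower, beside 24.8% and 24.6% of all genes.

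With siCHD4 alone, LINC00659, UNC5B-AS1 and LINC00624 rose, and LINC00674, PRKCQ-AS1, HAS2-AS1, C1QTNF9B-AS1 and MAFG-AS1 fell, and these 8 calls held with each of the 6 libraries left out. In all, 11 members were called higher (6.01%) and 9 lower (4.92%), beside 9.58% and 9.71% of all tested genes. The median member changed by 0.07 on the log2 scale, beside 0.00 over all tested genes. The count of 20 fell to 10 without control siRNA replicate 0 and to 10 without control siRNA replicate 1. After quantile normalization 4 were called higher and 11 lower.

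LINC00659, an intergenic RNA at chr20:61404332-61408348, stood at 67.8, 49.5 and 20.3 FPKM in siCHD4 libraries, against 10.5, 12.0 and 10.9 FPKM in control siRNA libraries. Every siCHD4 library lay above every control, over a wide spread (log2 change 1.79 ± 0.33 SE, adjusted p = 0.00185). UNC5B-AS1, at chr10:72976977-72978051 inside the gene of the netrin receptor UNC5B, stood at 11.0, 17.3 and 27.1 FPKM in siCHD4 libraries, against 6.65, 10.0 and 7.37 FPKM in control siRNA libraries. The groups did not overlap, although siCHD4 replicate 0 lay close to control siRNA replicate 1 (log2 change 1.04 ± 0.24 SE, adjusted p = 0.00682). Fitted on these 6 libraries only, neither the rise of LINC00659 (adjusted p = 0.0727) nor that of UNC5B-AS1 (adjusted p = 0.123) was called. LINC00624, at chr1:146730539-146989699, stood at 0.501, 0.686 and 1.14 FPKM in siCHD4 libraries, against 0.0682, 0 and 0 FPKM in control siRNA libraries (log2 change 0.78 ± 0.13 SE, adjusted p = 0.00101).

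LINC00674, annotated as a transcribed pseudogene at chr17:66098049-66110668, stood at 15.8, 13.8 and 18.0 FPKM in siCHD4 libraries, against 27.6, 29.0 and 26.5 FPKM in control siRNA libraries, with no overlap (log2 change -0.77 ± 0.11 SE, adjusted p = 0.000325). PRKCQ-AS1, upstream of the gene of a protein kinase C of T cells, stood at 2.37, 2.38 and 1.33 FPKM in siCHD4 libraries, against 4.64, 4.24 and 4.55 FPKM in control siRNA libraries (log2 change -0.88 ± 0.13 SE, adjusted p = 0.000328). HAS2-AS1, opposite the gene of hyaluronan synthase HAS2, stood at 0.199, 0.244 and 0.158 FPKM in siCHD4 libraries, against 1.30, 1.17 and 2.33 FPKM in control siRNA libraries (log2 change -1.09 ± 0.23 SE, adjusted p = 0.00464). The groups were fully separated for each of these 3 RNAs. C1QTNF9B-AS1 averaged 0.835 ± 0.262 FPKM in siCHD4 and 3.04 ± 0.289 FPKM in control siRNA (log2 change -1.15, adjusted p = 0.00277, and 0.0502 with a pseudocount of 0.1). MAFG-AS1 averaged 1.73 ± 0.476 FPKM in siCHD4 and 3.34 ± 0.588 FPKM in control siRNA (log2 change -0.68, adjusted p = 0.00598, and 0.0814 in the fit of these 6 libraries only).

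**Figure D2:**
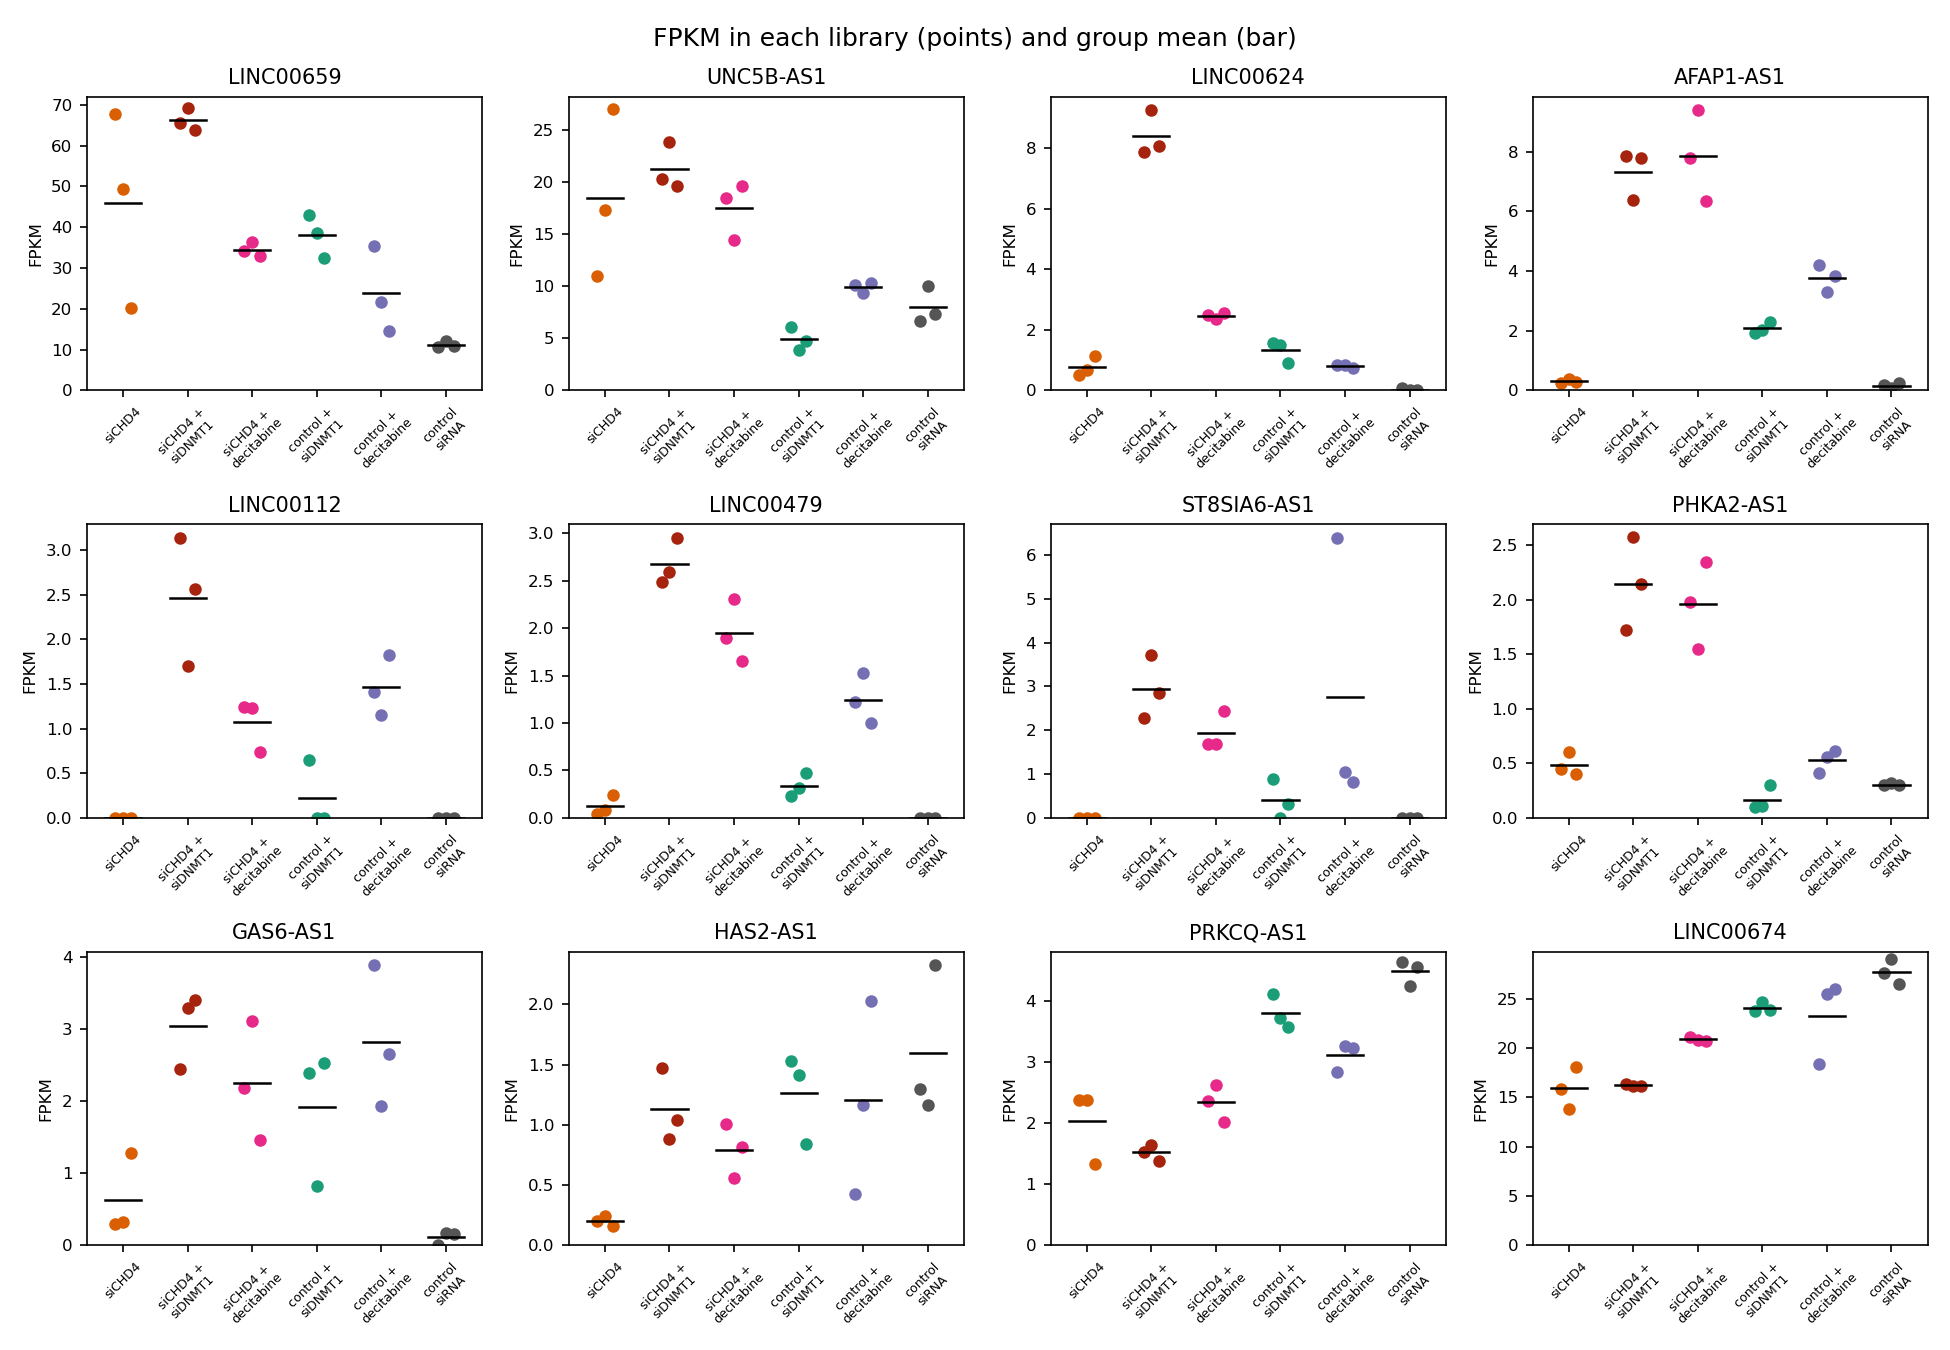
FPKM (vertical axis, a scale of its own for each RNA) of 12 long non-coding RNAs in the 6 groups, with 1 point per library and a bar at the group mean. LINC00624 lay at 7.87 to 9.24 FPKM in siCHD4 plus siDNMT1 and at 0 to 0.0682 FPKM in control siRNA, while PRKCQ-AS1 and LINC00674 were highest in control siRNA.

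On the siDNMT1 background the RNAs that rose with siCHD4 included LINC00624, UNC5B-AS1, GLIS3-AS1, LINC00112, ST8SIA6-AS1, LINC00479, AFAP1-AS1 and PHKA2-AS1. Those that fell included TPRG1-AS2, PRKAG2-AS1 and PRKCQ-AS1. In all, 48 members were called higher (26.2%), close to the 24.8% of all tested genes, and 21 lower (11.5%), beside 24.6%. The median member changed by 0.19 on the log2 scale, beside -0.01 over all genes. After quantile normalization the split was 26 higher and 46 lower, and 45 of the 69 calls were kept. At a limit of 5 FPKM in 3 libraries 28 of the 69 were still tested. All 28 kept their call, 13 higher and 15 lower. The marker sums given above for fibroblasts and blood cells were higher, and that for colon epithelium lower through KRT8 and KRT18, in siCHD4 plus siDNMT1 than in its control, and their part in these counts was not tested.

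LINC00624 stood at 7.87, 9.24 and 8.08 FPKM in siCHD4 plus siDNMT1, against 1.56, 1.50 and 0.894 FPKM in control siRNA plus siDNMT1, a wide gap beside the spread of either group (log2 change 2.03 ± 0.13 SE, adjusted p = 3.8e-08). UNC5B-AS1 stood at 20.3, 23.8 and 19.7 FPKM in siCHD4 plus siDNMT1, against 6.10, 3.87 and 4.72 FPKM in control siRNA plus siDNMT1 (log2 change 1.93 ± 0.24 SE, adjusted p = 1.72e-05). GLIS3-AS1, opposite a transcription factor gene of pancreatic beta cells, stood at 4.93, 5.16 and 3.96 FPKM in siCHD4 plus siDNMT1, against 0.197, 0.651 and 1.04 FPKM in control siRNA plus siDNMT1 (log2 change 1.83 ± 0.31 SE, adjusted p = 0.000284). None of these 3 groups of libraries overlapped with its control.

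LINC00112 and LINC00479, the head-to-head pair on chromosome 21, were both listed at 0 in every control siRNA library. LINC00112 stood at 3.14, 1.71 and 2.56 FPKM in siCHD4 plus siDNMT1, against 0.653, 0 and 0 FPKM in control siRNA plus siDNMT1 (log2 change 1.53 ± 0.19 SE, adjusted p = 2.04e-05). LINC00479 stood at 2.49, 2.59 and 2.95 FPKM in siCHD4 plus siDNMT1, against 0.225, 0.310 and 0.477 FPKM in control siRNA plus siDNMT1 (log2 change 1.46 ± 0.12 SE, adjusted p = 2.75e-07). With siCHD4 alone LINC00112 was listed at 0 in all 3 libraries, as in all 3 control siRNA libraries, and LINC00479 stood at 0.0378, 0.0793 and 0.241 FPKM, against 0 in all 3 controls (adjusted p = 0.368).

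AFAP1-AS1, an antisense RNA known to be raised in Barrett's oesophagus and several cancers, stood at 7.84, 6.36 and 7.78 FPKM in siCHD4 plus siDNMT1, against 1.94, 2.03 and 2.28 FPKM in control siRNA plus siDNMT1 (log2 change 1.43 ± 0.12 SE, adjusted p = 5.79e-07). PHKA2-AS1, opposite the gene of a phosphorylase kinase subunit, stood at 1.73, 2.57 and 2.15 FPKM in siCHD4 plus siDNMT1, against 0.0946, 0.104 and 0.300 FPKM in control siRNA plus siDNMT1 (log2 change 1.43 ± 0.12 SE, adjusted p = 5.81e-07). ST8SIA6-AS1, opposite a sialyltransferase gene, stood at 2.27, 3.71 and 2.84 FPKM in siCHD4 plus siDNMT1, against 0.887, 0 and 0.313 FPKM in control siRNA plus siDNMT1 (log2 change 1.53 ± 0.38 SE, adjusted p = 0.00402). The lowest library of each doubly treated group lay above the highest of its control. PHKA2-AS1 stayed below the limit of 1 FPKM in this control and in that with decitabine, so its rise is in part a result of the choice of members.

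TPRG1-AS2 stood at 1.46, 2.79 and 2.66 FPKM in siCHD4 plus siDNMT1, against 6.86, 7.13 and 7.26 FPKM in control siRNA plus siDNMT1 (log2 change -1.32 ± 0.34 SE, adjusted p = 0.00534). PRKCQ-AS1 stood at 1.53, 1.65 and 1.38 FPKM in siCHD4 plus siDNMT1, against 4.11, 3.72 and 3.57 FPKM in control siRNA plus siDNMT1 (log2 change -0.93 ± 0.13 SE, adjusted p = 4.44e-05). Neither pair of groups overlapped. LINC00493, now annotated as the protein-coding gene SMIM26 of a small mitochondrial protein, averaged 43.6 ± 5.65 FPKM in siCHD4 plus siDNMT1 and 69.2 ± 6.32 FPKM in control siRNA plus siDNMT1 (log2 change -0.66, adjusted p = 0.00116). FBXO22-AS1 averaged 67.7 ± 5.42 FPKM in siCHD4 plus siDNMT1 and 108 ± 3.58 FPKM in control siRNA plus siDNMT1 (log2 change -0.66, adjusted p = 0.00804). PRKAG2-AS1 averaged 0.868 ± 0.751 FPKM in siCHD4 plus siDNMT1 and 2.54 ± 0.713 FPKM in control siRNA plus siDNMT1 (log2 change -0.98, adjusted p = 0.0127). That call was lost without siCHD4 plus siDNMT1 replicate 0 (log2 change -0.69, adjusted p = 0.0775) and without control siRNA plus siDNMT1 replicate 2 (log2 change -0.83, adjusted p = 0.0562).

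**Figure D3:**
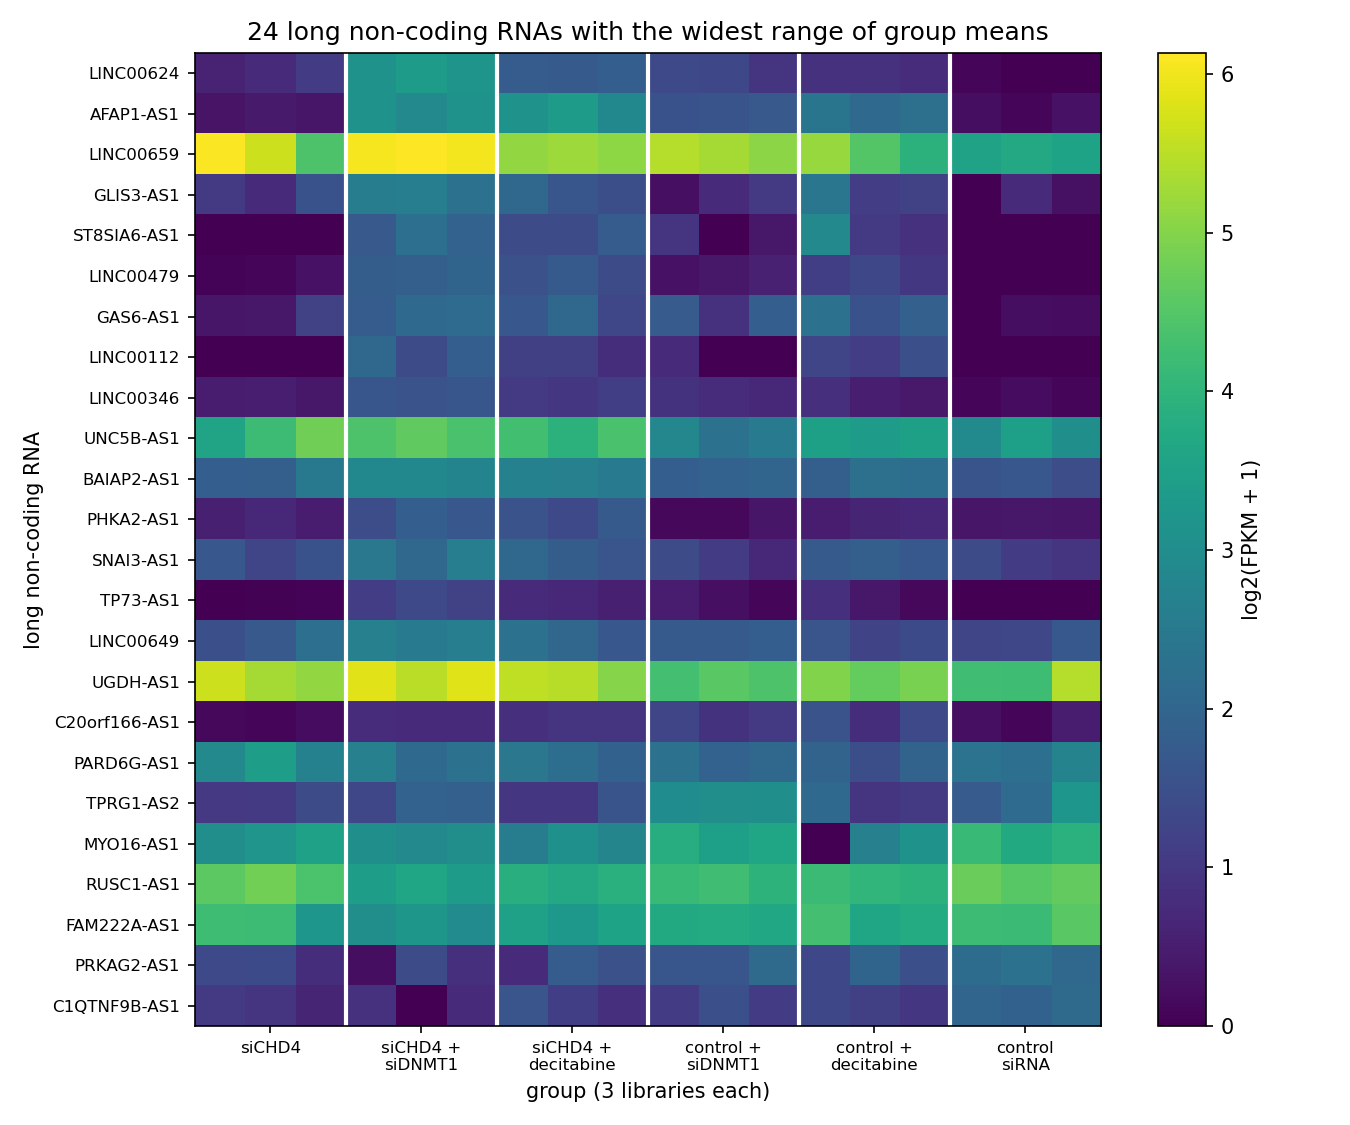
Level on the log2(FPKM + 1) scale (colour) in each of the 18 libraries (columns, 3 per group) for the 24 long non-coding RNAs with the widest range of group means (rows). LINC00624 and AFAP1-AS1 head the list, LINC00659 and UGDH-AS1 are the most abundant of the 24, and C1QTNF9B-AS1 and PRKAG2-AS1 at the foot are brightest in control siRNA.

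On the decitabine background siCHD4 changed few of these RNAs: PHKA2-AS1, LINC00624, AFAP1-AS1 and LINC00346 were called higher (2.19% of members, beside 3.26% of all genes). None was called lower by limma at an adjusted p below 0.05, beside 1.31% of all genes, and 27 members had an unadjusted p under 0.05. After quantile normalization 3 were called higher and 7 lower. PHKA2-AS1 stood at 1.98, 1.55 and 2.35 FPKM in siCHD4 plus decitabine, against 0.409, 0.556 and 0.616 FPKM in control siRNA plus decitabine (log2 change 0.95 ± 0.12 SE, adjusted p = 0.000212). LINC00624 stood at 2.47, 2.35 and 2.57 FPKM in siCHD4 plus decitabine, against 0.842, 0.841 and 0.726 FPKM in control siRNA plus decitabine (log2 change 0.94 ± 0.13 SE, adjusted p = 0.000437). The groups did not overlap for either RNA, but PHKA2-AS1 stayed below the limit of 1 FPKM in this control too. Its rise is therefore in part a result of the choice of members. AFAP1-AS1 stood at 7.80, 9.38 and 6.33 FPKM in siCHD4 plus decitabine, against 4.18, 3.29 and 3.84 FPKM in control siRNA plus decitabine (log2 change 0.88 ± 0.12 SE, adjusted p = 0.000432, and 0.0627 in the fit of these 6 libraries only). LINC00346 averaged 1.08 ± 0.121 FPKM in siCHD4 plus decitabine and 0.521 ± 0.247 FPKM in control siRNA plus decitabine (log2 change 0.47, adjusted p = 0.0241). That last call was lost without any of the 3 siCHD4 plus decitabine libraries (adjusted p = 0.0795, 0.0557 and 0.0976 without replicates 0, 1 and 2) and without control siRNA plus decitabine replicates 1 (adjusted p = 0.0768) or 2 (adjusted p = 0.0902). It was also lost with a pseudocount of 0.1 (adjusted p = 0.0628), after quantile normalization (adjusted p = 0.145) and in the fit of these 6 libraries only (adjusted p = 0.204). CHD4 itself was not called lower on this background, as given above, and the part of that in the count was not tested.

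The difference between siCHD4 effects was tested in the same fit. Between the siDNMT1 background and siCHD4 alone it was called for 8 members (7 positive, 1 negative), beside 4.12% of all tested genes, and TP73-AS1 and HOXA-AS3, given apart later, are 2 of those 8. The siCHD4 effect was larger with siDNMT1 for LINC00112 (difference of log2 changes 1.53, adjusted p = 0.00302), LINC00479 (1.30, adjusted p = 0.000161), AFAP1-AS1 (1.26, adjusted p = 0.000346), LINC00624 (1.25, adjusted p = 0.000753) and PHKA2-AS1 (1.25, adjusted p = 0.000379). It was negative for RUSC1-AS1 (-0.60, adjusted p = 0.0497), which stood at 9.72, 11.3 and 9.24 FPKM in siCHD4 plus siDNMT1, against 16.5, 17.9 and 14.7 FPKM in control siRNA plus siDNMT1, and at 22.9, 27.4 and 20.0 FPKM in siCHD4, against 25.8, 22.4 and 24.1 FPKM in control siRNA. This call of RUSC1-AS1 was lost with 9 of the 12 libraries left out in turn (adjusted p = 0.0701 to 0.135), with the replicate block (0.0573), with a pseudocount of 0.1 (0.0594), at a limit of 5 FPKM (0.0665) and in the fit of the groups compared (0.0803). With a pseudocount of 0.1 the difference turned to -0.20 for LINC00624 (adjusted p = 0.827), whose control libraries lay at or near 0. The differences of LINC00479 (adjusted p = 0.0614) and AFAP1-AS1 (adjusted p = 0.0806) were no longer called at that setting, nor were those of RUSC1-AS1, TP73-AS1 and HOXA-AS3, which left LINC00112 and PHKA2-AS1. The count was 5 without siCHD4 replicate 0, without control siRNA plus siDNMT1 replicate 1 or without control siRNA replicate 1, and 20 without siCHD4 replicate 2. After quantile normalization 6 were positive and 2 negative.

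Between the decitabine background and siCHD4 alone PHKA2-AS1 was the only member with a called difference (0.77, adjusted p = 0.0469), beside 1.16% of all genes. It was not called with a pseudocount of 0.1 (adjusted p = 0.205), in the fit of the 4 groups concerned (adjusted p = 0.115), with the replicate block (adjusted p = 0.0657), or with any of 11 of the 12 libraries left out (log2 differences from 0.67 to 0.82). PHKA2-AS1 is in the set through its level in treated groups, so its differences with siDNMT1 and with decitabine are in part a result of the choice. Between the siDNMT1 and decitabine backgrounds 14 members were called (12 positive, 2 negative), beside 8.40% of all genes. TP73-AS1 and HOXA-AS3, given apart later, are among the 12 positive, and 10 remain without them. LINC00112 had the largest difference (1.78, adjusted p = 0.0025), and its level with decitabine was 1.24, 1.23 and 0.737 FPKM in siCHD4 plus decitabine, against 1.41, 1.15 and 1.82 FPKM in control siRNA plus decitabine (adjusted p = 0.473). LBX2-AS1 (1.26, adjusted p = 0.011), SNAI3-AS1 (1.25, adjusted p = 0.0145), LINC00624 (1.09, adjusted p = 0.00478), LINC00479 (1.07, adjusted p = 0.00259) and HOXB-AS3 (0.71, adjusted p = 0.011) were also called and held with each library left out. With a pseudocount of 0.1 the difference of LINC00624 was not called (adjusted p = 0.0889). The count of 14 was 6 without siCHD4 plus siDNMT1 replicate 0, siCHD4 plus siDNMT1 replicate 2 or control siRNA plus siDNMT1 replicate 1. It was 7 without siCHD4 plus decitabine replicate 2 or control siRNA plus siDNMT1 replicate 0, and 8 without siCHD4 plus decitabine replicate 0. The 3 backgrounds differ in schedule as well as in treatment, which cannot be told apart here. They differ in the depletion of CHD4 too. With siDNMT1 CHD4 averaged 28.4 FPKM in siCHD4 libraries, against 68.2 FPKM in control siRNA libraries. With decitabine it averaged 54.9 FPKM, against 76.2 FPKM, and the part of this in the differences was not tested.

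Loss of DNMT1 and decitabine were each set against control siRNA alone, and these comparisons share the 3 control libraries. In control siRNA plus siDNMT1 11 members were called higher (6.01%, beside 6.94% of all genes) and 12 lower (6.56%, beside 4.40%). The count of 23 was 14 without control siRNA plus siDNMT1 replicate 1, 15 without control siRNA replicate 0 and 14 without control siRNA replicate 1, and after quantile normalization 5 were higher and 17 lower. In control siRNA plus decitabine 19 members were called higher (10.4%, beside 9.60%) and 10 lower (5.46%, beside 8.63%). Without TP73-AS1, given apart later, 18 were called higher. The count of 29 was 18 without control siRNA replicate 0 and 18 without control siRNA replicate 1, and after quantile normalization 10 were higher and 15 lower.

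AFAP1-AS1 stood at 1.94, 2.03 and 2.28 FPKM in control siRNA plus siDNMT1 and at 4.18, 3.29 and 3.84 FPKM in control siRNA plus decitabine, against 0.164, 0.0701 and 0.229 FPKM in control siRNA. Both treated groups lay above the controls without overlap (log2 change 1.42 with siDNMT1, adjusted p = 1.11e-06, and 2.04 with decitabine, adjusted p = 2.1e-08). GAS6-AS1, opposite the gene of the receptor tyrosine kinase ligand GAS6, stood at 2.40, 0.825 and 2.54 FPKM in control siRNA plus siDNMT1 and at 3.89, 1.94 and 2.65 FPKM in control siRNA plus decitabine, against 0, 0.168 and 0.157 FPKM in control siRNA (log2 change 1.34, adjusted p = 0.00479, and 1.76, adjusted p = 0.000473). C20orf166-AS1 averaged 1.12 ± 0.285 FPKM in control siRNA plus siDNMT1 and 1.43 ± 0.621 FPKM in control siRNA plus decitabine, against 0.209 ± 0.167 FPKM in control siRNA (log2 change 0.81, adjusted p = 0.0035, and 0.98, adjusted p = 0.000668). The siDNMT1 call of C20orf166-AS1 was lost after quantile normalization (adjusted p = 0.0691) and its decitabine call in the fit of these 6 libraries only (adjusted p = 0.0518).

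LINC00659 stood at 43.0, 38.7 and 32.3 FPKM in control siRNA plus siDNMT1, against 10.5, 12.0 and 10.9 FPKM in control siRNA (log2 change 1.68, adjusted p = 0.00322). With decitabine it stood at 35.4, 21.6 and 14.4 FPKM, all above the controls but widely spread, and was not called (adjusted p = 0.0586). LINC00479 was called higher in control siRNA plus siDNMT1, at 0.225, 0.310 and 0.477 FPKM against 0 in every control siRNA library (adjusted p = 0.0319). It stood at 1.22, 1.52 and 0.997 FPKM in control siRNA plus decitabine and LINC00112 at 1.41, 1.15 and 1.82 FPKM, against 0 for both in every control siRNA library (adjusted p = 6.39e-06 for LINC00479 and 0.000267 for LINC00112). ST8SIA6-AS1 stood at 6.39, 1.04 and 0.825 FPKM in control siRNA plus decitabine, against 0 in every control siRNA library (adjusted p = 0.00935, and 0.123 in the fit of these 6 libraries only). The value of 6.39 FPKM came from replicate 0, the library whose low values were taken as the coarsest. GLIS3-AS1 stood at 4.26, 1.16 and 1.29 FPKM in control siRNA plus decitabine, against 0, 0.665 and 0.207 FPKM in control siRNA (log2 change 1.23, adjusted p = 0.0141). Without decitabine replicate 0 its call was lost (log2 change 0.82, adjusted p = 0.0517), as it was without control siRNA replicate 0 (adjusted p = 0.0627) and in the fit of these 6 libraries only (adjusted p = 0.109).

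Among the fallers MBNL1-AS1, opposite the gene of a splicing factor bound up in myotonic dystrophy, stood at 0.415, 0.615 and 0.523 FPKM in control siRNA plus siDNMT1 and at 0.690, 0.619 and 0.401 FPKM in control siRNA plus decitabine, against 1.49, 1.36 and 1.50 FPKM in control siRNA (log2 change -0.69, adjusted p = 0.000118, and -0.65, adjusted p = 0.000229). Neither treated group overlapped with the controls. RUSC1-AS1 averaged 16.4 ± 1.64 FPKM in control siRNA plus siDNMT1 and 15.6 ± 1.33 FPKM in control siRNA plus decitabine, against 24.1 ± 1.67 FPKM in control siRNA (log2 change -0.53, adjusted p = 0.00619, and -0.60, adjusted p = 0.00211). HOXB-AS3, an RNA of the HOXB cluster that has been described to encode a small peptide in colon cancer, stood at 33.5, 30.2 and 32.3 FPKM in control siRNA plus siDNMT1, against 49.6, 47.4 and 54.2 FPKM in control siRNA (log2 change -0.64, adjusted p = 0.000554). MYO16-AS1 stood at 0, 5.37 and 7.93 FPKM in control siRNA plus decitabine, against 16.6, 12.3 and 14.0 FPKM in control siRNA (log2 change -1.98, adjusted p = 0.017). Its 0 lies in the library whose low values were taken as the coarsest. The log2 change was -1.01 without that library, while the call was lost without control siRNA replicate 0 (adjusted p = 0.0578).

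Both agents together were set against control siRNA alone. In siCHD4 plus siDNMT1 54 members were called higher (29.5%, beside 29.3% of all genes) and 34 lower (18.6%, beside 29.8%), and 25 higher and 70 lower after quantile normalization. In siCHD4 plus decitabine 30 were called higher (16.4%, beside 18.0%) and 19 lower (10.4%, beside 16.9%), and 17 higher and 38 lower after quantile normalization. Without the 3 members given apart below, which reached 1 FPKM in siCHD4 plus siDNMT1 only, 51 and 28 were called higher in these groups. LINC00624 had a log2 change of 3.20 in siCHD4 plus siDNMT1 (adjusted p = 6.66e-11) and 1.76 in siCHD4 plus decitabine (adjusted p = 1.16e-07). AFAP1-AS1 had 2.85 (adjusted p = 1.04e-10) and 2.92 (adjusted p = 2.43e-10) in these groups, and LINC00659 had 2.47 (adjusted p = 1.63e-05) and 1.55 (adjusted p = 0.00231). RUSC1-AS1 had a log2 change of -1.18 in siCHD4 plus siDNMT1 (adjusted p = 6.78e-07) and -0.83 in siCHD4 plus decitabine (adjusted p = 6.18e-05). The order of group means differed between RNAs. LINC00624 averaged 8.39 FPKM in siCHD4 plus siDNMT1, 2.46 in siCHD4 plus decitabine, 1.32 in control siRNA plus siDNMT1, 0.803 in control siRNA plus decitabine, 0.777 in siCHD4 and 0.0227 in control siRNA. Its siCHD4 libraries (0.501 to 1.14 FPKM) overlapped with those of control siRNA plus siDNMT1 and plus decitabine. AFAP1-AS1 averaged 7.83 FPKM in siCHD4 plus decitabine, 7.33 in siCHD4 plus siDNMT1, 3.77 in control siRNA plus decitabine, 2.08 in control siRNA plus siDNMT1, 0.299 in siCHD4 and 0.154 in control siRNA. The first 2 of these groups overlapped, and no other neighbours did.

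Members that were nearly silent in control siRNA made up a small group. A control mean under 0.5 FPKM was held by 16 of the 183 members, beside 726 of the 12809 tested genes, and 4 members were listed at 0 in all 3 control siRNA libraries: LINC00479, LINC00112, ST8SIA6-AS1 and TP73-AS1. A member with so low a control level is in the set through its level in treated groups, so its rise is in part a result of the choice. HOXA-AS3, KIF9-AS1 and TP73-AS1 reached 1 FPKM in siCHD4 plus siDNMT1 libraries only and had to be higher there. TP73-AS1, beside the gene of the p53 relative TP73, stood at 1.15, 1.57 and 1.30 FPKM in siCHD4 plus siDNMT1 and at 0.0728 to 0.372 FPKM in control siRNA plus siDNMT1. HOXA-AS3, in the HOXA cluster, stood at 1.57, 1.59 and 1.75 FPKM in siCHD4 plus siDNMT1 and at 0.303 to 0.571 FPKM in control siRNA plus siDNMT1. KIF9-AS1 stood at 1.36, 1.01 and 1.42 FPKM in siCHD4 plus siDNMT1 and at 0.485 to 0.661 FPKM in control siRNA plus siDNMT1. Without these 3, the called members of the comparison of siCHD4 plus siDNMT1 with control siRNA plus siDNMT1 number 45 higher and 21 lower. At the limit itself, the third-highest library was at 1.01 FPKM for KIF9-AS1 and 1.03 FPKM for both ARHGEF26-AS1 and UBAC2-AS1, just inside. It was at 0.998 FPKM for LINC00200, 0.960 FPKM for ACVR2B-AS1 and 0.955 FPKM for SRRM2-AS1, just outside.

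Antisense RNAs were set beside their sense partners. The partner had a symbol in the table for 137 of 143 antisense members and was tested for 123. In the lifted GENCODE annotation on GRCh37 the exons of 92 of these pairs share bases and those of 27 do not, and 4 pairs could not be placed. For siCHD4 plus siDNMT1 against control siRNA plus siDNMT1, 49 of the 123 antisense RNAs and 71 of the 123 partners were called, beside 49.4% of all tested genes. In 32 pairs both were called, in 22 of them in the same direction and in 10 in opposite directions, and 17 antisense RNAs were called where the partner was not. Among pairs whose exons share bases 26 had both called, 18 in the same direction. TP73-AS1 and KIF9-AS1 had to be higher in siCHD4 plus siDNMT1, as given above. TP73-AS1 is among the 22 and the 18, and KIF9-AS1 is among the 17. For siCHD4 against control siRNA, where 19.3% of all genes were called, 9 pairs had both called, 8 in the same direction, and the exception was UNC5B-AS1. In control siRNA plus decitabine 18 antisense RNAs and 21 partners were called against control siRNA and 4 pairs had both, beside 18.2% of all genes. In control siRNA plus siDNMT1 10 antisense RNAs and 13 partners were called and 1 pair had both, beside 11.3% of all genes.

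UNC5B-AS1 and UNC5B, whose exons share no base, were called in opposite directions. UNC5B stood at 5.54, 4.91 and 6.29 FPKM in siCHD4 libraries, against 15.1, 14.8 and 10.3 FPKM in control siRNA libraries (log2 change -1.12 ± 0.15 SE, adjusted p = 0.000204). With siDNMT1 UNC5B stood at 6.33, 4.99 and 6.32 FPKM in siCHD4 libraries, against 10.4, 11.2 and 12.8 FPKM in control siRNA libraries (log2 change -0.86, adjusted p = 0.000378), the same libraries in which UNC5B-AS1 rose. HAS2, the synthase gene opposite HAS2-AS1, averaged 0.865 ± 0.206 FPKM in siCHD4 and 5.64 ± 1.53 FPKM in control siRNA (log2 change -1.81, adjusted p = 2.02e-06). The exons of HAS2 and HAS2-AS1 share bases, so their reads cannot be told apart there. With siDNMT1 HAS2 averaged 3.37 ± 0.153 FPKM in siCHD4 libraries and 15.6 ± 1.10 FPKM in control siRNA libraries (log2 change -1.93, adjusted p = 2.51e-07), where HAS2-AS1 averaged 1.13 ± 0.308 and 1.26 ± 0.372 FPKM (adjusted p = 0.788). The difference between the siCHD4 effects on HAS2-AS1 in these backgrounds was not called (adjusted p = 0.101). PRKCQ, whose exons share no base with PRKCQ-AS1, fell beside it: PRKCQ averaged 2.01 ± 0.287 FPKM in siCHD4 and 4.21 ± 0.365 FPKM in control siRNA (log2 change -0.79, adjusted p = 0.00175).

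**Figure D4:**
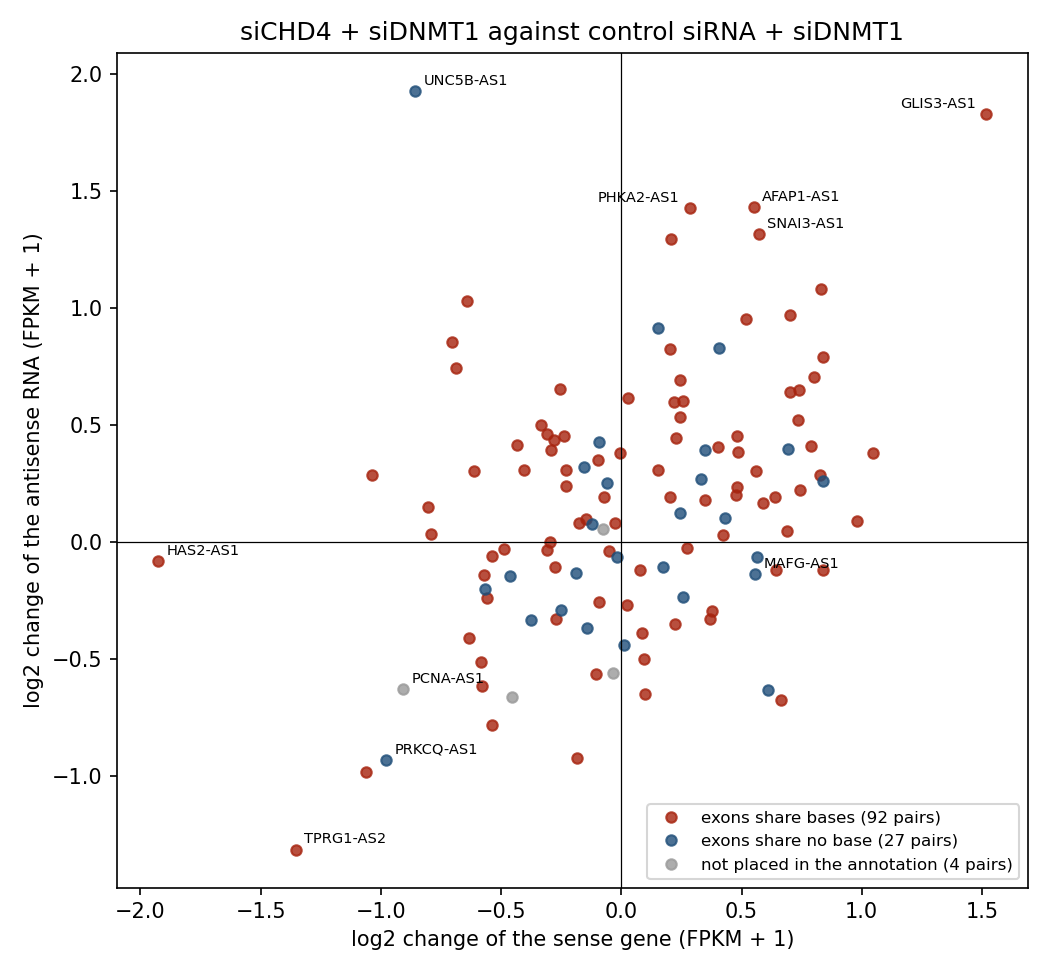
Log2 change of each antisense RNA (vertical axis) and of its sense gene (horizontal axis), on the log2(FPKM + 1) scale, in siCHD4 plus siDNMT1 against control siRNA plus siDNMT1, 1 point for each of 123 pairs, coloured by whether annotated exons share bases. UNC5B-AS1 lies at 1.93 with its partner at -0.86, and GLIS3-AS1 at 1.83 with its partner at 1.52.

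GLIS3, which shares 194 exon bases with GLIS3-AS1, averaged 3.07 ± 0.464 FPKM in siCHD4 plus siDNMT1 and 0.416 ± 0.0878 FPKM in control siRNA plus siDNMT1 (log2 change 1.52, adjusted p = 1.1e-07). AFAP1, an actin-bundling protein gene that shares 5135 exon bases with AFAP1-AS1, averaged 8.56 ± 0.823 FPKM in siCHD4 plus siDNMT1 and 5.54 ± 0.785 FPKM in control siRNA plus siDNMT1 (log2 change 0.55, adjusted p = 0.0416). In control siRNA plus decitabine AFAP1 averaged 6.06 ± 1.35 FPKM, against 5.82 ± 0.926 FPKM in control siRNA (adjusted p = 0.921), although AFAP1-AS1 was called higher there. GAS6 stood at 18.4, 17.2 and 21.3 FPKM in control siRNA plus siDNMT1 and at 23.6, 24.5 and 22.4 FPKM in control siRNA plus decitabine, against 23.2, 20.8 and 18.1 FPKM in control siRNA (adjusted p = 0.668 and 0.43), where GAS6-AS1 was called higher by both. ST8SIA6 was listed at 0 in all libraries but 1 of siCHD4 plus siDNMT1 (0.0755 FPKM), a group in which ST8SIA6-AS1 reached 3.71 FPKM. PHKA2 averaged 10.9 ± 0.296 FPKM in siCHD4 plus siDNMT1 and 8.75 ± 0.558 FPKM in control siRNA plus siDNMT1 (log2 change 0.28, adjusted p = 0.0136).

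Other long non-coding RNAs of known roles were counted by list, whether or not they are members. Among 17 hosts of small nucleolar RNAs and growth-linked RNAs, 11 were called lower and none higher in siCHD4 plus siDNMT1 against control siRNA plus siDNMT1 by limma (median log2 change -0.47, beside -0.01 over all genes, of which 24.6% were called lower and 24.8% higher). SNHG8 averaged 249 FPKM in siCHD4 plus siDNMT1 and 456 FPKM in control siRNA plus siDNMT1 (adjusted p = 0.0001), and ZFAS1 averaged 166 FPKM and 262 FPKM in those groups (adjusted p = 0.0002). GAS5, which accumulates in cells that stop growing, averaged 158 FPKM in siCHD4 plus siDNMT1 and 196 FPKM in control siRNA plus siDNMT1 (adjusted p = 0.024). With siCHD4 alone 3 of the 17 were called lower, beside 9.71% of all genes, and with siCHD4 plus decitabine against control siRNA plus decitabine none, beside 1.31%. With siDNMT1 2 were, beside 4.40%, and with decitabine 1, beside 8.63%, and none was called higher in these 4 comparisons.

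Of 8 nuclear and chromatin RNAs tested 4 were called higher and 1 lower in siCHD4 plus siDNMT1 against control siRNA plus siDNMT1 (median log2 change 0.48), beside 24.8% and 24.6% of all genes. MALAT1, an abundant RNA of nuclear speckles, averaged 164 FPKM in siCHD4 plus siDNMT1 and 87.1 FPKM in control siRNA plus siDNMT1 (log2 change 0.90, adjusted p = 0.0034). NEAT1, the scaffold of paraspeckles, averaged 53.8 FPKM in siCHD4 plus siDNMT1 and 29.0 FPKM in control siRNA plus siDNMT1 (log2 change 0.87, adjusted p = 0.043). HOTAIRM1, of the HOXA cluster, averaged 10.2 FPKM in siCHD4 plus siDNMT1 and 14.1 FPKM in control siRNA plus siDNMT1 (log2 change -0.44, adjusted p = 0.024). Of 7 homeobox cluster antisense RNAs tested 3 were called higher and none lower in that comparison, beside the same shares of all genes. HOXA-AS3, which had to be higher there as given above, is among the 3. HOXB-AS3 averaged 50.2 ± 3.21 FPKM in siCHD4 plus siDNMT1 and 32.0 ± 1.62 FPKM in control siRNA plus siDNMT1 (log2 change 0.63, adjusted p = 0.000163). Among imprinted RNAs H19, expressed from the maternal copy only in normal tissue, averaged 19.8 FPKM in control siRNA plus siDNMT1 and 75.8 FPKM in control siRNA plus decitabine, against 3.66 FPKM in control siRNA (log2 change 2.18, adjusted p = 1.9e-08, and 4.07, adjusted p = 2e-11). In siCHD4 plus siDNMT1 against control siRNA plus siDNMT1, 1 of 2 imprinted RNAs, 2 of 8 cancer-associated RNAs, 1 of 3 p53-responsive RNAs and 3 of 5 microRNA hosts were called higher, and 1 cancer-associated RNA was called lower, beside 24.8% and 24.6% of all genes. Of the cancer-associated RNAs MIR31HG, a microRNA host, averaged 80.3 FPKM in siCHD4 and 43.0 FPKM in control siRNA (log2 change 0.88, adjusted p = 7e-05).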

How the data were processed

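RNA of SW48 cells was sequenced in 18 libraries, and the values used are FPKM per gene that the authors made, per the submitters' processing notes with TopHat2 2.0.9, Cuffdiff 2.1.1 and the hg19 genome. For annotation, filters, scaling and strand setting nothing is given in the sources used here, and the depth of each library is unknown. Of 23599 entries, 28 without a gene name (0.119%) were left out. The 12809 genes that reached 1 FPKM in 3 or more libraries were fitted on log2(FPKM + 1), a scale that understates changes of low genes, with limma 3.58.1 in R 4.3.3, with 1 mean per group, a mean-variance trend and Benjamini-Hochberg adjustment over all of them. A call is an adjusted p below 0.05, and the procedure was tested on simulated data.

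Members and gene lists were chosen with earlier results of these data known. The genes named are the targeted genes, the 12 most abundant members, in each comparison the 8 members with the largest called rises and falls, where the groups did not overlap, their sense partners, called differences between effects, members nearest the limit, and up to 6 of the most abundant genes of a list. OIP5-AS1 and some cell type markers were named outside this rule. The settings varied were the pseudocount (0.1), the filter (none, or 5 FPKM), median-ratio rescaling, quantile normalization, a fit of only the groups compared, a replicate block, and each library left out. Same-numbered libraries did not deviate together (residual correlations of -0.31 to 0.126 over 45 pairs), so the numbers were not taken as pairs. Locations are from GENCODE lifted to GRCh37, which placed 177 of 183 members. RefSeq promoters matched 143 of 183 members, under 80%, so CG content was not compared over the set.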

Additional observations from a re-analysis of the deposited data

Results flagged for a closer look

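The effect of siCHD4 differed between backgrounds, by limma's test of the difference itself with Benjamini-Hochberg adjustment, for the following RNAs, given as differences of log2 changes. With siDNMT1 minus siCHD4 alone, the differences were 1.53 for LINC00112, 1.30 for LINC00479, 1.26 for AFAP1-AS1, 1.25 for LINC00624, 1.25 for PHKA2-AS1 and -0.60 for RUSC1-AS1, a call lost with 9 of the 12 libraries left out in turn and with the replicate block. With a pseudocount of 0.1 those of LINC00479, AFAP1-AS1 and LINC00624 were not called either. With decitabine minus siCHD4 alone, the difference was 0.77 for PHKA2-AS1. That call was lost with a pseudocount of 0.1, with the replicate block and in the fit of the groups compared. It was also lost with each control siRNA library left out in turn. PHKA2-AS1 is in the set through its level in treated groups, as given above.

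With siDNMT1 minus decitabine, the differences were 1.78 for LINC00112, 1.68 for GLIS3-AS1 (adjusted p = 0.035), 1.26 for LBX2-AS1, 1.25 for SNAI3-AS1, 1.18 for UNC5B-AS1 (adjusted p = 0.0424), 1.09 for LINC00624, 1.07 for LINC00479, 0.77 for LINC00853 (adjusted p = 0.048) and 0.71 for HOXB-AS3. They were 0.51 for DNMBP-AS1 (adjusted p = 0.038), -0.57 for HNRNPU-AS1 (adjusted p = 0.0363), which the annotation lists as the protein-coding gene HNRNPU, and -0.63 for PRKCQ-AS1 (adjusted p = 0.0433). Of the 23 named differences, which include those of TP73-AS1 and HOXA-AS3, 11 held with each library left out and 7 under every other setting. The backgrounds differ in schedule too, which cannot be told apart from the treatment. CHD4 was also depleted less with decitabine, as given above, and the part of that was not tested.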

How the results depend on the processing

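Of 100 named changes between groups, 68 kept their call with each library left out and 67 under every other setting. With only genes of at least 5 FPKM in 3 libraries, where 62 members remained, the counts were 9 of 20 calls for siCHD4 alone, 28 of 69 for siCHD4 with siDNMT1, 2 of 4 for siCHD4 with decitabine, 8 of 23 for siDNMT1, 7 of 29 for decitabine, 31 of 88 for siCHD4 plus siDNMT1 and 21 of 49 for siCHD4 plus decitabine, both against control siRNA. Without a filter 13 were called for siCHD4 alone. Fitted on only the groups compared, 8 were called for siCHD4 alone, 2 for siCHD4 with decitabine and 8 for decitabine. After quantile normalization 10 were called for siCHD4 with decitabine. For the difference between the siDNMT1 background and siCHD4 alone (8 calls), 2 remained in number with a pseudocount of 0.1 and 2 at 5 FPKM. For that between decitabine and siCHD4 alone (1 call), the count was 0 with a pseudocount of 0.1, at 5 FPKM, in the fit of the groups compared and with the replicate block, and 2 after quantile normalization. For that between siDNMT1 and decitabine (14 calls), it was 7 with a pseudocount of 0.1, 4 at 5 FPKM and 9 with the replicate block. The sole reversal was LINC00624, whose difference between siDNMT1 and siCHD4 alone was -0.20 with a pseudocount of 0.1. The cause was not tested.

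With single libraries left out, the counts ran from 10 to 22 for siCHD4 alone, 52 to 65 with siDNMT1, 3 to 6 with decitabine, 14 to 18 for siDNMT1, 18 to 26 for decitabine, 72 to 84 for siCHD4 plus siDNMT1 and 35 to 45 for siCHD4 plus decitabine against control siRNA. For the differences they ran from 5 to 20, 0 to 2 and 6 to 21 in the order above. The replicate block gave 15, 71, 4, 20, 27, 87 and 48 calls in the 7 comparisons, and 7 for the first difference. Without counts no interval for low values could be given, and the median member averaged 2.20 FPKM.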
